A study of Sus scrofa with 20 samples.

Results

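Heat shock proteins and their DNAJ co-chaperones were followed in adrenal glands of 20 German Landrace pigs. Members were all genes whose symbol in the annotation of the array belongs to the HSPA, HSPB, HSPD, HSPE, HSPH, HSP90A, DNAJA, DNAJB or DNAJC families, together with BAG3, HSF1, SERPINH1 and CRYAB. HSPA5, DNAJB9, DNAJB11 and DNAJC3, which serve the unfolded protein response of the endoplasmic reticulum (ER), were left out. The rule found 61 members among 13588 named genes. The 61 members comprised 6 HSPA genes, 2 HSP110-type genes (HSPH1 and HSPA4L), 2 HSP90 genes, 2 chaperonin genes (HSPD1 and HSPE1), 9 small heat shock proteins including CRYAB, 4 DNAJA, 9 DNAJB and 24 DNAJC genes, and BAG3, HSF1 and SERPINH1.

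The 10 high-reactive (HR) and 10 low-reactive (LR) pigs were of 1 breed, and their stage is given as adult in the labels, while the study's methods put slaughter at several months of age. They had been chosen as extremes of early life coping behavior, assessed as piglets, and by their haplotype at a coping behavior QTL, so that phenotype and haplotype go together in these groups. Every gland had an Affymetrix Porcine Snowball array of its own, so that each value stands for 1 animal, and levels are log2 values after robust multichip averaging (RMA). The labels name no treatment for either group.

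Heat shock proteins are molecular chaperones that hold, fold or release other proteins. HSP70 proteins (HSPA) bind unfolded stretches in a cycle of ATP hydrolysis, which J proteins (DNAJ) start and exchange factors such as HSPH1 and BAG3 end, while HSP90 finishes clients that include the glucocorticoid receptor. Small heat shock proteins (HSPB, CRYAB) keep unfolded proteins from aggregating without ATP, and heat shock factor 1 (HSF1) raises transcription of many of these genes when unfolded protein builds up.

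The arrays had median levels of 4.74 to 4.81, and 55 of the 61 members lay above 4.78, the median level of all probe sets. Of 7 markers of the adrenal cortex 6 were measured and of 6 chromaffin cell markers 5, and each of these had a mean level of 9.56 or more. The array of the animal HR2835 stood apart, with a mean r of 0.938 with the other arrays, against 0.977 to 0.983 for the other 19. This animal had the highest level of all 20 for 15 members and the lowest for 19, and it was the highest for 17.4% and the lowest for 34.2% of all named genes. Differences between HR and LR and correlations are therefore also given without HR2835 where leaving it out turned their direction or moved them by over 1.5 times. In a whole gland, fewer cells of a type and less RNA per cell cannot be told apart.

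HR and LR were compared with limma over all 47722 probe sets, and 0 members passed the threshold of 0.05 after Benjamini-Hochberg adjustment, beside 0% of all probe sets called. All adjusted p-values of members were 1.0. At an unadjusted p under 0.05 there were 4 members (DNAJA2, DNAJC16, HSPA8 and BAG3), all lower in HR, which is 6.56% of the members against 3.08% of all named genes, or 1.6% for those lower in HR. Without HR2835 there were 11 members (HSPH1, HSPA4L, HSPA8, HSPA14, HSPD1, DNAJA1, DNAJA2, DNAJB4, DNAJC7, DNAJC10 and DNAJC21), again all lower in HR, 18.0% of the members against 8.04% of named genes, or 3.96% for those lower in HR, and the smallest adjusted p over all probe sets was 0.606. The values of HR and LR overlapped for 61 of 61 members, and 0% of all named genes had groups that did not overlap. Differences are thus given as measured, as HR minus LR on the log2 scale with their standard error (SE), and none of them is a called change.

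Of the 61 members, 22 had a higher and 39 a lower mean in HR. The median difference was -0.061, against -0.010 over all named genes, of which 53.7% were lower in HR. The 14 measured members of a list of heat-inducible genes had a median of -0.13, with 10 lower in HR, and the other 47 members a median of -0.054. Leaving out HR2835 gave a median of -0.069 over the members, with 35 lower in HR, and of -0.21 over the heat-inducible genes, while the median over all named genes was 0.011.

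**Figure D1:**
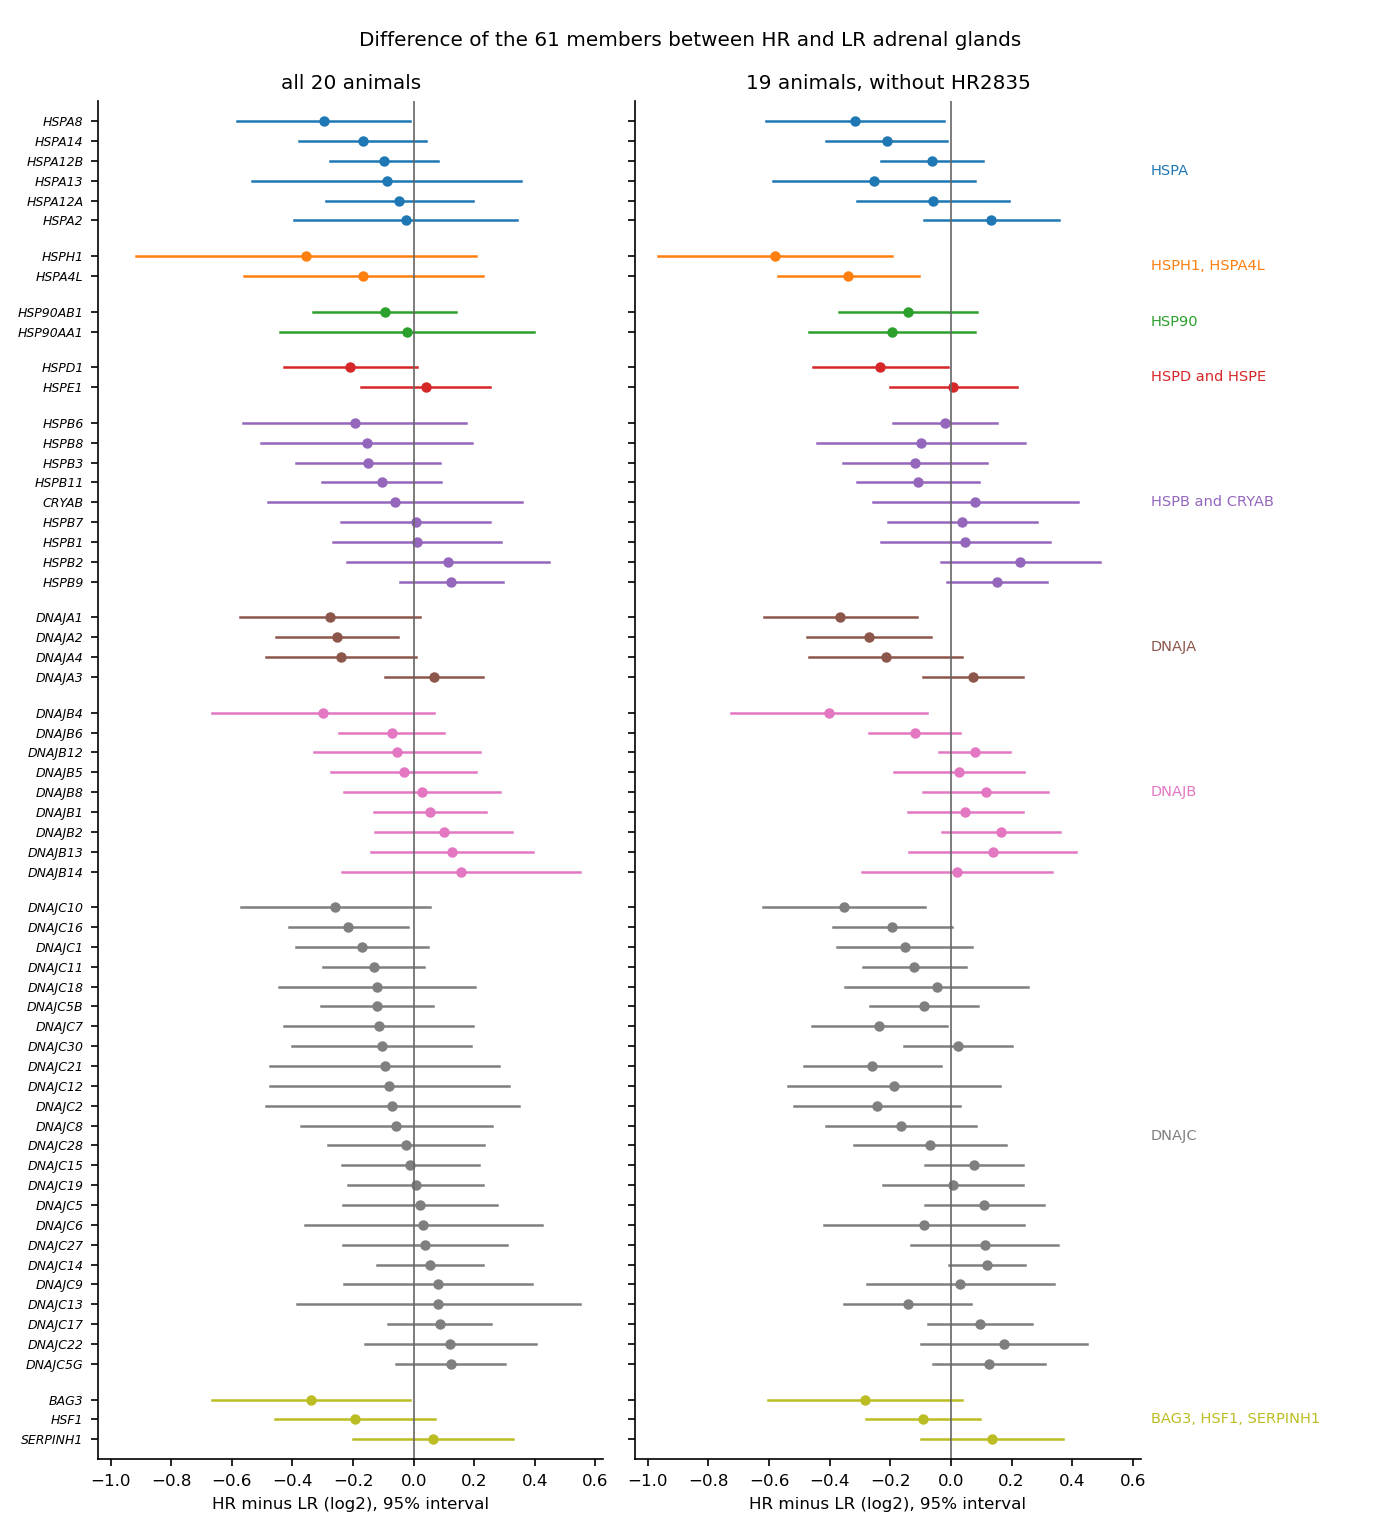
Difference HR minus LR (log2, point) with its 95% interval from limma for each of the 61 members, by subfamily, for all 20 animals (left) and for 19 animals without HR2835 (right). HSPH1 lies at -0.36 on the left and -0.58 on the right, and the interval of every member on the left other than DNAJA2, DNAJC16, HSPA8 and BAG3 includes 0.

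All 6 HSPA genes had a lower mean in HR, with differences of -0.30 to -0.027, and 5 of 6 without HR2835. HSPA8, the HSP70 of unstressed cells, had a lowest, median and highest level of 10.72, 11.18 and 11.90 in HR and of 11.15, 11.44 and 12.11 in LR. HR2857 was lowest and LR2562 highest, and the groups overlapped over most of their range. The difference of HSPA8 was -0.30 ± 0.14 (SE; limma, unadjusted p = 0.0419), and -0.32 ± 0.14 without HR2835. The stress-induced genes HSPA1A, HSPA1B and HSPA6 have no named probe set in the annotation used, so that the classical inducible HSP70 was not analysed here.

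HSPA14, a relative of HSP70 found on ribosomes with DNAJC2, had 5.48, 5.97 and 6.35 in HR and 5.84, 6.14 and 6.41 in LR (lowest, median and highest), a difference of -0.17 ± 0.10 (limma, unadjusted p = 0.11). HSPA13, a microsomal ATPase of the family, had the widest range among the HSPA genes, with 6.89, 7.32 and 8.86 in HR and 6.53, 7.56 and 7.94 in LR. Its highest value of all belonged to HR2835, which lay at 8.86, with the next HR animal at 7.90, and its difference of -0.089 ± 0.21 was -0.25 ± 0.16 without HR2835. HSPA2, best known for its part in spermatogenesis, had 6.30, 7.81 and 8.29 in HR and 7.51, 7.77 and 8.46 in LR, and its difference of -0.027 became 0.13 without HR2835, the lowest HR animal. HSPA12A and HSPA12B, distant members of the family, had differences of -0.047 and -0.10, or -0.058 and -0.062 without HR2835.

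HSPH1, the HSP110 protein that frees ADP from HSP70, had the most negative difference of the members. Its lowest, median and highest level was 7.58, 8.32 and 10.45 in HR and 8.22, 8.72 and 9.64 in LR. Of the HR animals 9 lay between 7.58 and 8.72 and HR2835 far above them, whereas LR2594 was the highest LR animal. The difference was -0.36 ± 0.27 (limma, unadjusted p = 0.202) and -0.58 ± 0.19 without HR2835 (limma, unadjusted p = 0.00505, adjusted p = 0.606). HSPA4L, a second HSP110-type protein, had 4.60, 5.11 and 6.79 in HR and 4.86, 5.41 and 5.71 in LR, with the same HR2835 at the top. Its difference was -0.17 ± 0.19, and -0.34 ± 0.11 without HR2835 (limma, unadjusted p = 0.00653).

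HSP90AA1, the inducible cytosolic HSP90, had 9.63, 9.96 and 11.65 in HR and 9.58, 10.06 and 10.58 in LR (lowest, median and highest). The LR animals fell into 5 with levels up to 9.85 and 5 from 10.27 upwards, while 9 HR animals lay within 9.63 and 10.17. The difference was -0.021 ± 0.20, and -0.20 ± 0.13 without HR2835. HSP90AB1, the constitutive form, had 10.67, 11.09 and 11.48 in HR and 10.82, 11.07 and 11.54 in LR, a difference of -0.10 ± 0.11, with HR2835 again the highest HR animal.

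The mitochondrial chaperonin is built from HSPD1 (HSP60) and its lid HSPE1 (HSP10), whose genes are neighbours in RefSeq on Sscrofa11.1. HSPD1 had 10.67, 10.94 and 11.29 in HR and 10.88, 11.13 and 11.65 in LR, a difference of -0.21 ± 0.11 (limma, unadjusted p = 0.0628). HSPE1 had 10.28, 10.72 and 11.04 in HR and 10.39, 10.65 and 10.95 in LR, a difference of 0.039 ± 0.10, and of 0.0085 ± 0.10 without HR2835. HR2965 was the lowest and HR2593 the highest HR animal for both genes.

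**Figure D2:**
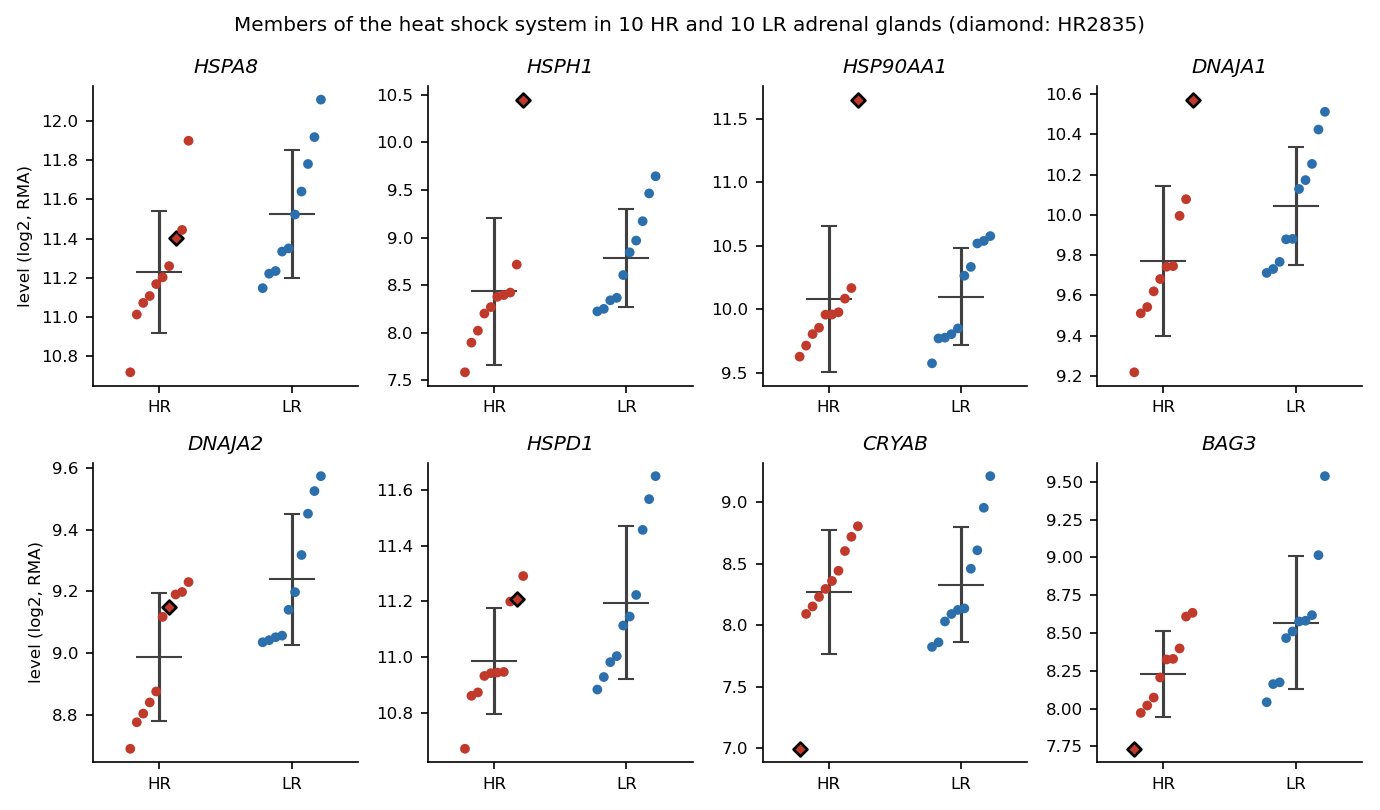
Level (log2, RMA) of 8 members in each animal, HR left and LR right, 1 point per animal in order of level, with the mean and SD of each group as bars and HR2835 as a diamond. HR2835 is the highest of all animals for HSPH1 (10.45), HSP90AA1 (11.65) and DNAJA1 (10.57) and the lowest for CRYAB (6.99) and BAG3 (7.73).

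The 9 small heat shock proteins showed no common direction, with 4 higher and 5 lower in HR and a median difference of -0.061, which turned to 0.038 without HR2835 with 5 higher and 4 lower. CRYAB (alpha B crystallin), the most variable of them, had 6.99, 8.33 and 8.80 in HR and 7.82, 8.13 and 9.21 in LR. HR2835 alone set the HR minimum, and without it the HR animals began at 8.09. The difference was -0.061 ± 0.20 with all animals and 0.081 ± 0.16 without HR2835. HSPB1 (HSP27) had 10.72, 11.00 and 11.53 in HR and 10.31, 11.11 and 11.53 in LR, a difference of 0.011 with a 95% interval of -0.27 to 0.29, and of 0.048 without HR2835.

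HSPB6 (HSP20), known from muscle, had 7.73, 9.46 and 9.69 in HR and 9.27, 9.51 and 9.77 in LR. Its difference of -0.19 was -0.019 without HR2835, which lay far below the next HR value of 9.15. HSPB3, another small heat shock protein known from muscle, had 4.48, 4.98 and 5.29 in HR and 4.69, 5.08 and 5.43 in LR, and HSPB9, known from testis, had 5.86, 6.11 and 6.35 in HR and 5.72, 6.03 and 6.27 in LR. Their differences were -0.15 ± 0.12 and 0.12 ± 0.082, and the groups overlapped in both. The remaining HSPB2, HSPB7, HSPB8 and HSPB11 had differences of 0.11, 0.0063, -0.15 and -0.11, or of 0.23, 0.038, -0.10 and -0.11 without HR2835.

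Among the type A J proteins, which resemble bacterial DnaJ most closely, 3 of 4 were lower in HR. DNAJA2 had the smallest p of all members, with 8.69, 8.996 and 9.23 in HR and 9.04, 9.17 and 9.57 in LR. All LR animals lay at 9.04 or above, and 5 HR animals lay below that. The difference was -0.25 ± 0.10 (limma, unadjusted p = 0.0166, adjusted p = 1.0) and -0.27 ± 0.10 without HR2835. Of the other probe sets of DNAJA2, the second gave -0.30 (limma, unadjusted p = 0.0796) with an r of 0.77 with the first, and a further, dim one gave -0.11 with an r of 0.16.

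DNAJA1, the inducible HSP70 partner of the cytosol, had 9.22, 9.71 and 10.57 in HR and 9.71, 10.005 and 10.51 in LR. HR2835 was at the top of HR, HR2857 at the bottom, and 6 other HR animals lay between them at or below 9.75. The difference was -0.28 ± 0.14, and -0.36 ± 0.12 without HR2835 (limma, unadjusted p = 0.00698). DNAJA4 had 6.59, 7.27 and 7.61 in HR and 7.13, 7.37 and 7.95 in LR, a difference of -0.24 ± 0.12. The mitochondrial DNAJA3 was the only DNAJA gene with a higher mean in HR, by 0.067. Its second probe set, with a mean level of 8.20 beside 8.39, gave -0.042 and had an r of 0.20 with the first.

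Of the 9 DNAJB genes 5 were higher and 4 lower in HR, or 7 higher and 2 lower without HR2835. DNAJB4, a heat-inducible partner of HSP70, had 5.03, 5.56 and 6.60 in HR and 5.13, 6.04 and 6.37 in LR, a difference of -0.30 ± 0.18, and of -0.40 ± 0.16 without HR2835 (limma, unadjusted p = 0.0169). DNAJB1, the main inducible J protein, had a dim probe set at 1.33, 1.76 and 2.06 in HR and 1.46, 1.67 and 1.95 in LR, far under the median level of the array, so that its values say little about the gene. DNAJB12 and DNAJB14, J proteins of the ER membrane, went apart in HR2835. DNAJB12 had 6.40, 7.72 and 7.84 in HR and 7.56, 7.65 and 7.74 in LR with HR2835 as the lowest, whereas DNAJB14 had 4.79, 5.46 and 6.68 in HR and 4.35, 5.43 and 5.69 in LR with HR2835 as the highest. Their differences of -0.054 and 0.16 were 0.078 and 0.021 without HR2835. DNAJB5 had a difference of -0.033 ± 0.11 (0.027 without HR2835) and DNAJB13, known from sperm flagella and dim here, of 0.13 ± 0.13. Of the remaining 3, DNAJB6, which holds back aggregates, had -0.072, DNAJB2 0.10 and DNAJB8 0.028, and without HR2835 these were -0.12, 0.17 and 0.11.

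The DNAJC genes, J proteins with tasks of their own in many compartments, numbered 24, of which 10 were higher and 14 lower in HR, with a median of -0.040, or of -0.079 without HR2835. DNAJC16 had 8.11, 8.37 and 8.62 in HR and 8.21, 8.56 and 8.85 in LR, a difference of -0.22 ± 0.095 (limma, unadjusted p = 0.0328). DNAJC10, a disulfide reductase of the ER, had 6.93, 7.15 and 8.11 in HR and 6.97, 7.46 and 8.11 in LR, a difference of -0.26 ± 0.15, and of -0.35 ± 0.13 without HR2835. DNAJC13, which works on endosomes, varied most, with 5.10, 5.23 and 7.51 in HR and 4.95, 5.44 and 5.83 in LR. HR2835 lay at 7.51 and the next HR animal at 5.55, so that the difference of 0.082 became -0.14 without it. DNAJC1, of the ER membrane, had a difference of -0.17 ± 0.11, and DNAJC5, the cysteine string protein of secretory vesicles, of 0.020 ± 0.12, or 0.11 without HR2835.

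The other DNAJC genes were not taken up by the rule for named genes and are given by their place in the cell. The mitochondrial DNAJC11, DNAJC15, DNAJC19 and DNAJC30 had differences of -0.13, -0.011, 0.0068 and -0.11, and of -0.12, 0.076, 0.0072 and 0.023 without HR2835. DNAJC6 (auxilin), which strips clathrin from vesicles, had 0.032, and DNAJC9, which binds histones, 0.081, against -0.088 and 0.031 without HR2835. DNAJC8 and DNAJC17, which are tied to RNA splicing, had -0.057 and 0.086, and -0.17 and 0.10 without HR2835. DNAJC2 and DNAJC21, which work on ribosomes, had -0.070 and -0.095, and -0.24 and -0.26 without HR2835. DNAJC7, which binds both HSP70 and HSP90, had -0.12, and DNAJC12 -0.080, against -0.24 and -0.19 without HR2835. DNAJC14, DNAJC18, DNAJC22, DNAJC27, DNAJC28, DNAJC5B and DNAJC5G lay between -0.12 and 0.12, and between -0.089 and 0.18 without HR2835. Of the 24 genes, DNAJC22, DNAJC5B, DNAJC5G and DNAJC9 were at or below the median level of the array.

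BAG3, which ties HSP70 to small heat shock proteins and autophagy, had 7.73, 8.27 and 8.63 in HR and 8.04, 8.54 and 9.54 in LR. LR2579 was the highest of all animals and HR2835 the lowest, and LR2789, LR2793 and LR2562 lay below the median of HR. The difference was -0.34 ± 0.16 (limma, unadjusted p = 0.0427) and -0.28 ± 0.15 without HR2835, and it was -0.23 when LR2579 was left out. A second probe set of BAG3 gave -0.43, with an r of 0.90 with the first. HSF1 had 7.09, 8.02 and 8.37 in HR and 7.84, 8.27 and 8.37 in LR, a difference of -0.19 ± 0.13, and of -0.093 ± 0.090 without HR2835. SERPINH1 (HSP47), the collagen chaperone of the ER, had 10.39, 11.05 and 11.31 in HR and 10.56, 10.93 and 11.50 in LR, a difference of 0.064 ± 0.13, and of 0.13 ± 0.11 without HR2835. Markers of the capsule and fibroblasts, all 6 of them measured, had mean levels of 8.42 to 9.61 in HR and 9.17 to 10.15 in LR animals, and their part in these differences was not tested.

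Co-variation of members from animal to animal was measured as Pearson r over the 20 animals after the mean of each group was taken away. Among the 14 measured heat-inducible genes, 37 of 91 pairs passed a permutation test with 100000 resamples after Benjamini-Hochberg adjustment over the 91 pairs, 33 with a positive and 4 with a negative r. Of these pairs 37.4% had an r over 0.5, against 11.1% of all pairs of named genes. Without HR2835 the list had 31 pairs that passed, and 34.1% over 0.5 against 5.56% of all pairs. The median r of the list was nevertheless -0.065, as 42 pairs were positive and 49 negative, and 0.036 without HR2835. When DNAJB1 with its dim probe set was left out, the median was 0.38, with 42 pairs positive and 36 negative.

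The list fell into a larger and a smaller set of genes, sorted after the values were seen, so that the sorting itself has no test. HSPA8, HSPH1, HSPA4L, HSP90AA1, HSP90AB1, DNAJA1, DNAJB4, HSPD1 and HSPE1, ATP-driven chaperones and their partners, had 36 of 36 pairs positive, with a median r of 0.67 and 30 pairs past the test. HSPB1, CRYAB, SERPINH1 and BAG3 had 6 of 6 pairs positive with a median of 0.59 and 3 past the test. The 3 were the pairs among HSPB1, CRYAB and SERPINH1. BAG3 had an r of 0.43, 0.34 and 0.41 with them and did not pass (adjusted permutation p = 0.146, 0.194 and 0.146). Without HR2835 its r was 0.38, 0.18 and 0.29, and it was -0.22 with CRYAB when all probe sets of a gene were averaged. Between the sets 36 of 36 pairs were negative, with a median of -0.40, and 4 passed. All 13 pairs of DNAJB1 were negative and 0 passed, but its probe set is dim, so that these values say little about the gene.

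The positive side of this pattern was as large without HR2835, and the negative side was not. Without this animal the larger set kept 36 of 36 positive pairs with a median of 0.70, and the smaller set 6 of 6 with a median of 0.57. Between the sets 32 of 36 pairs were then negative with a median of -0.22, and 1 passed. In LR alone, 29 of 36 pairs between the sets were negative with a median of -0.17, and the medians within the larger set were 0.71 in HR and 0.74 in LR.

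**Figure D3:**
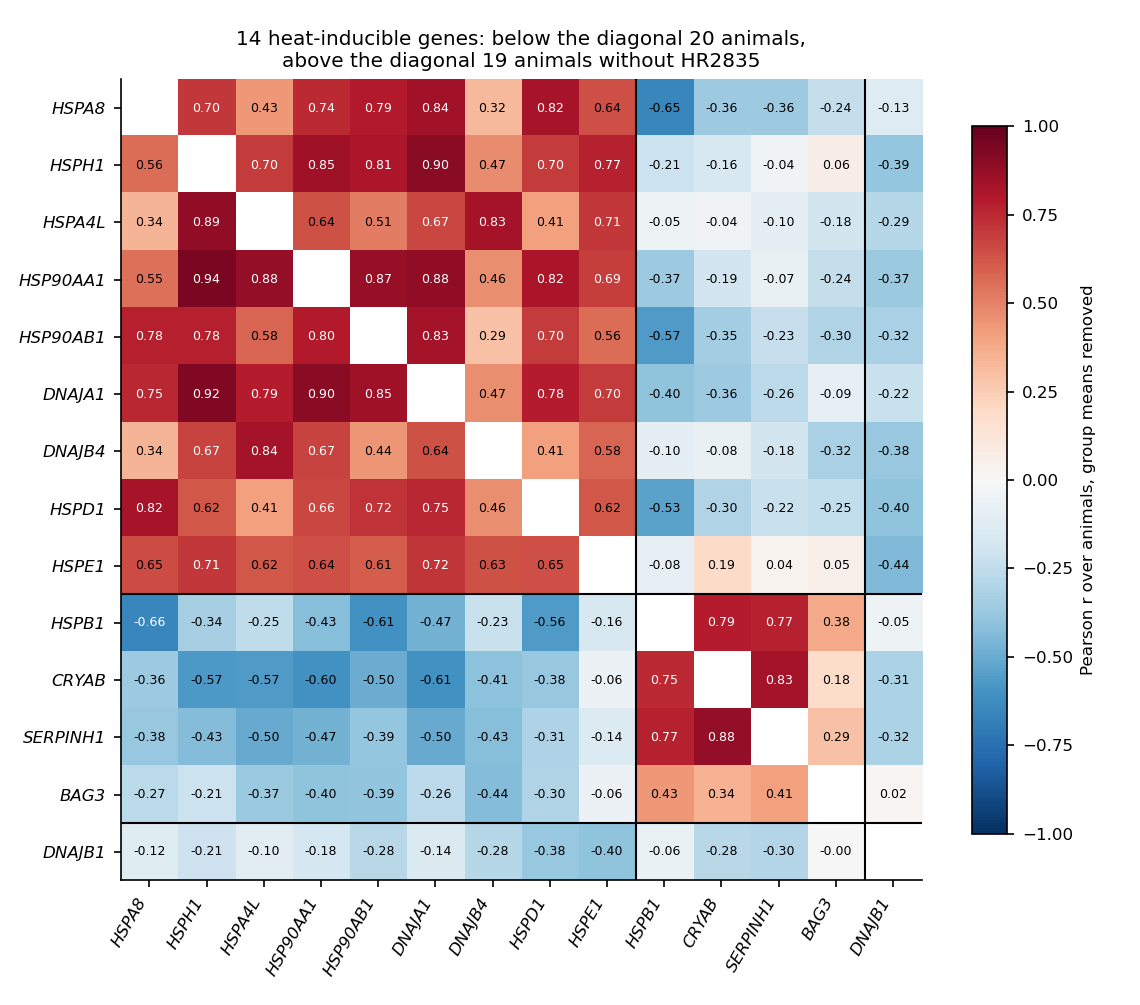
Pearson r over animals, group means removed, between the 14 measured heat-inducible genes, with 20 animals below and 19 animals without HR2835 above the diagonal, and black lines between the set of HSPA8 to HSPE1, the set of HSPB1, CRYAB, SERPINH1 and BAG3, and DNAJB1. The first block is positive throughout on both sides, and the block between the sets has a median of -0.40 below and -0.22 above the diagonal.

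HSPH1 and HSP90AA1 had the highest r of the list, 0.94 (Spearman's rho 0.93; permutation p = 1e-05 for both, the smallest that the resamples can give, adjusted p = 0.000152). It was 0.97 in HR and 0.87 in LR, 0.82 after the 2 most distant HSPH1 values were dropped and 0.85 without HR2835. HSPH1 and DNAJA1 followed with an r of 0.92 and a rho of 0.94 (permutation p = 1e-05, adjusted p = 0.000152, for both), and an r of 0.88 without the 2 farthest animals. HSP90AA1 and DNAJA1 had an r of 0.90, a rho of 0.93 and the same adjusted p, with 0.86 without the 2 farthest animals. HSPH1 and HSPA4L had an r of 0.89 (permutation p = 5e-05, adjusted p = 0.000455) and a rho of 0.74, and 0.70 without HR2835.

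The same animals stood at the ends of many of these genes. LR2594 was the highest LR animal for 5 of the 9 genes of the larger set and LR2016 the lowest for 7. HR2835 was the highest HR animal for 6 of the 9 and HR2857 the lowest for 5.

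CRYAB and SERPINH1 had an r of 0.88 and a rho of 0.82 (permutation p = 1e-05 and 4e-05, adjusted p = 0.000152 and 0.000303), and an r of 0.75 without the 2 farthest animals. When all probe sets of a gene were averaged, which adds 2 dimmer ones for CRYAB and 1 for SERPINH1, the r was 0.47 and no longer passed (adjusted p = 0.0749). HSPB1 went with both, at 0.75 with CRYAB and 0.77 with SERPINH1 (adjusted permutation p = 0.00201 for both), also without HR2835 at 0.79 and 0.77. The 2 probe sets of HSPB1 had an r of 0.97 with each other. Over all members, 39 further probe sets had a median r of 0.40 with the one that stood for the gene, and the 20 of them above the median level of the array 0.59.

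HSPD1 and HSPE1, parts of 1 machine and neighbours in the genome, had an r of 0.65 and a rho of 0.73 (permutation p = 0.0018 and 0.00048, adjusted p = 0.00682 and 0.00202). It was 0.90 in HR and 0.48 in LR, where it did not pass (adjusted p = 0.318), and the difference between the groups was not tested. With the mean of all probe sets it was 0.45 (adjusted p = 0.0835).

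Of the negative pairs, HSPA8 and HSPB1 had the lowest r, -0.66 (permutation p = 0.00213, adjusted p = 0.00718) with a rho of -0.64 (adjusted p = 0.0153), and -0.65 without HR2835 (adjusted p = 0.0093). After the 2 most distant HSPA8 values were dropped it was -0.58 (adjusted p = 0.0576). DNAJA1 and CRYAB had an r of -0.61 (permutation p = 0.00965, adjusted p = 0.0251) but a rho of -0.40, and -0.36 without HR2835, so that this relation rests on that animal. HSPH1 and CRYAB, at -0.57 with all animals (permutation p = 0.0309, adjusted p = 0.0654), had an r of -0.16 without it.

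**Figure D4:**
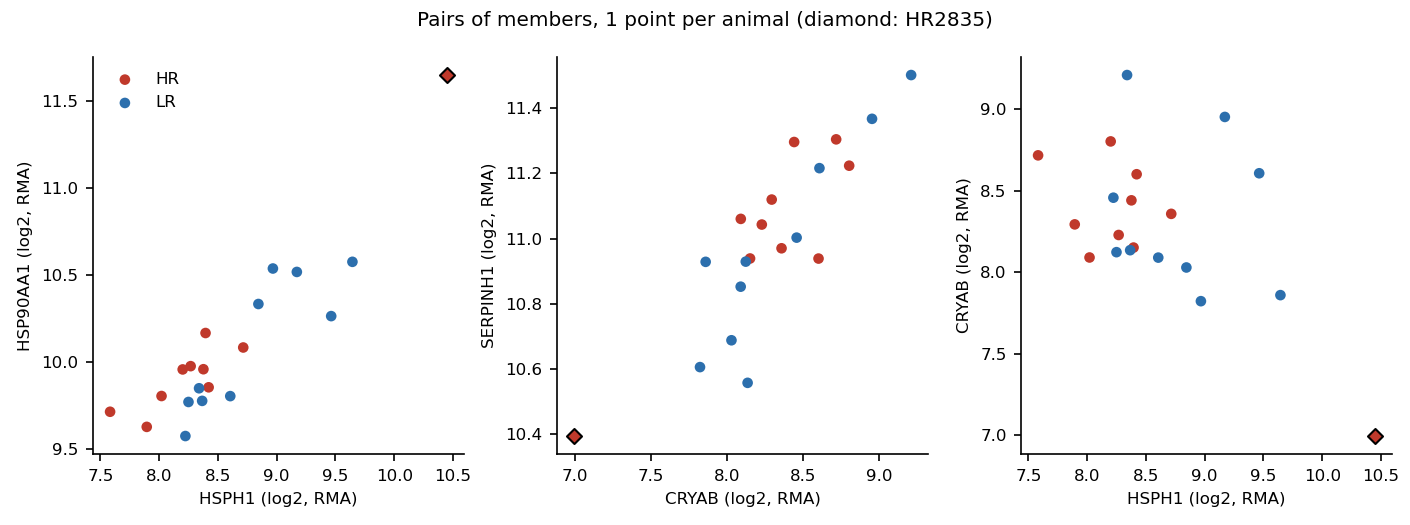
Levels (log2, RMA) of 3 pairs of members, 1 point per animal, HR in red and LR in blue, with HR2835 as a diamond. HSPH1 and HSP90AA1 vary together with r = 0.94, CRYAB and SERPINH1 with r = 0.88, and HSPH1 against CRYAB has r = -0.57 with HR2835 and -0.16 without it.

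With HSPH1 as the measure, 21 of the other 60 members had an r over 0.5, against 18.3% of named genes, and 21 of 60 without HR2835, against 13.2%. An r under -0.5 was found for 13 of 60, or 3 of 60 without HR2835, and its share over named genes was not counted. The median over the members was 0.0069, against -0.21 over named genes, and 0.30 against -0.056 without HR2835. The members named for their r with HSPH1 or CRYAB were picked by it, so that these values are a description over genes that share their arrays, with no test. DNAJC8, a J protein of the spliceosome, had an r of 0.91 with HSPH1 and 0.82 without HR2835. DNAJB6 had 0.83 and 0.71. DNAJC12, a co-chaperone of the aromatic amino acid hydroxylases that include tyrosine hydroxylase, had 0.79 and 0.69. DNAJC21 and DNAJC2, both of ribosomes, had 0.88 and 0.83, and 0.68 and 0.57 without HR2835. On the other side DNAJC5 had -0.90 with HSPH1, and -0.78 without HR2835.

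With CRYAB as the measure, 15 of 60 members had an r over 0.5, against 23.4% of named genes, and 6 of 60 without HR2835, against 8.57%, shares near those of all genes. Of the small heat shock proteins, HSPB2 had an r of 0.91 with CRYAB, its neighbour in RefSeq, and 0.84 without HR2835. HSPB8, the partner of BAG3, had 0.75 and 0.76. HSPB6 had 0.71 with all animals and 0.39 without HR2835. DNAJC30, a mitochondrial J protein, had 0.87 and 0.80, and HSF1 0.77 and 0.55. HSF1 had -0.77 with HSPH1, and -0.44 without HR2835.

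Over all 1830 pairs of members the median r was 0.024, against 0.027 over all pairs of named genes (0.041 and -0.0012 without HR2835), with 18.4% of member pairs over 0.5 and 14.2% under -0.5, against 11.1% and 9.63% of all pairs. Without HR2835 these were 13.2% and 5.46% of member pairs, against 5.56% and 4.8% of all pairs. Within subfamilies, the 36 pairs of small heat shock proteins had a median of 0.33, or 0.23 without HR2835, the 36 pairs of DNAJB genes -0.13, or -0.036 without it, and the 276 pairs of DNAJC genes 0.0050, or 0.072 without it.

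**Figure D5:**
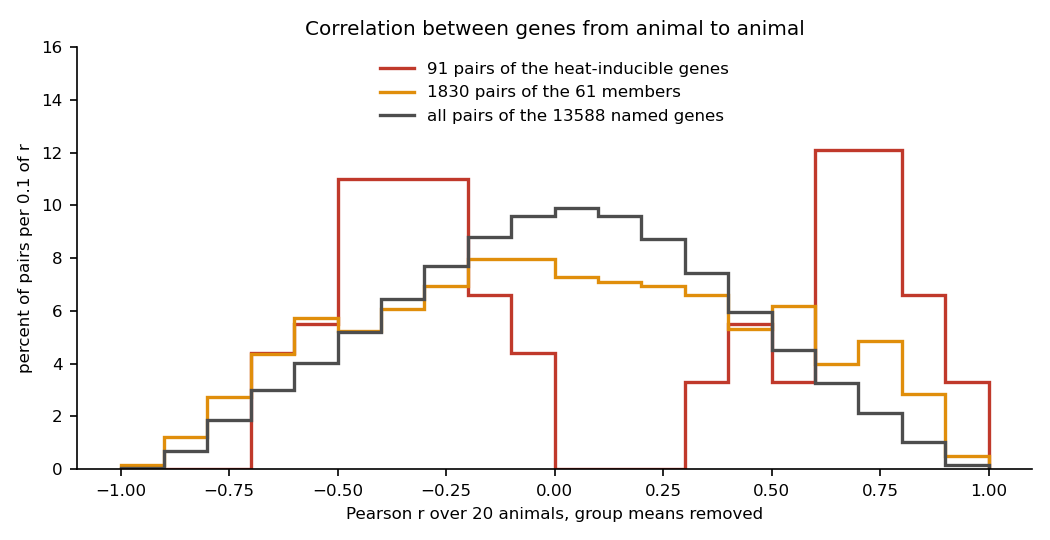
Share of gene pairs (percent per 0.1 of r) by Pearson r over 20 animals, group means removed, for 91 pairs of the heat-inducible genes (red), 1830 pairs of the 61 members (orange) and all pairs of the 13588 named genes (grey). The heat-inducible genes have humps on either side of 0, with 37.4% of pairs over 0.5, and the grey curve has 11.1% there.

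Other genes of the chaperone system were followed as lists. Of 13 co-chaperones of HSP90 11 were measured, 10 of them lower and 1 higher in HR, with a median of -0.10 and 0 called (limma). Without HR2835, 8 of the 11 were lower, with a median of -0.14 and 4 in place of 1 at an unadjusted p under 0.05, and 0 called. PTGES3 (p23), which closes the HSP90 clamp, averaged 8.57 ± 0.19 in the HR group and 8.83 ± 0.26 in the LR group (SD over 10 animals each), with a difference of -0.26 ± 0.10 (SE). CHORDC1, an HSP90 co-chaperone also named morgana, averaged 7.54 ± 0.52 in HR and 7.87 ± 0.37 in LR, with a difference of -0.33 ± 0.19, and -0.48 without HR2835. Of 8 subunits of the cytosolic chaperonin TRiC 7 were lower in HR, with a median of -0.12, or of -0.16 without HR2835, and 0 called, TCP1 at -0.25 ± 0.14 and CCT2 at -0.25 ± 0.16. Exchange factors for HSP70 (6 of 9 measured) had a median of -0.043 with 2 higher and 4 lower in HR, and relatives and regulators of HSF1 (4 of 5 measured) of 0.0056 with 3 higher and 1 lower. ER chaperones of the unfolded protein response (7 of 10 measured) had a median of -0.047 with 3 higher and 4 lower, and 0 were called in each of these lists. Without HR2835 their medians were -0.013, 0.014 and 0.022, with 3, 1 and 3 genes lower in HR.

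The lists differed in their r with HSPH1. The HSP90 co-chaperones had a median of 0.48 with 5 of 11 over 0.5, and of 0.66 with 7 of 11 without HR2835. Genes of this list such as STUB1, at -0.88, and UNC45A, at -0.63, lay on the other side, at -0.71 and -0.22 without HR2835. Exchange factors had a median of -0.21 with 1 of 6 over 0.5, and of 0.18 with 0 of 6 without HR2835, and relatives and regulators of HSF1 -0.27 with 1 of 4, and -0.099 with 0 of 4. CHORDC1 and CACYBP, an HSP90-binding protein, both had an r of 0.93 with HSPH1, and 0.85 and 0.84 without HR2835. TRiC subunits had a median r of 0.62 with 5 of 8 over 0.5, and of 0.72 with 7 of 8 without HR2835. FKBP4, the immunophilin of steroid receptor complexes, had 0.91 with CRYAB and 0.84 without HR2835, whereas its relative FKBP5, a glucocorticoid-induced gene, had 0.89 with HSPH1 and 0.76 without HR2835. Outside the system, the 10 genes most like the mean of the standardized list were UBE2D3, RAB28, SRP14, RPL36AL, UBE2N, FNDC3A, NUFIP1, COQ10B, THUMPD2 and WDR33, with an r of 0.92 for UBE2D3 and 0.86 for WDR33.

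Cell type markers and immediate early response genes were taken as the mean level of each list. These lists and the mean r of each array with the other arrays were set beside HSPH1 and CRYAB in 24 relations. The mean r of the arrays had an r of -0.74 with HSPH1 and of 0.60 with CRYAB (adjusted permutation p = 0.165 and 0.185). Without HR2835 these were 0.068 and -0.32. With all animals 4 passed a permutation test after adjustment. HSPH1 had an r of -0.74 with skeletal muscle markers (permutation p = 0.00529, adjusted p = 0.0351) and of -0.66 with leukocyte markers (permutation p = 0.00285, adjusted p = 0.0342). CRYAB had an r of 0.72 with smooth muscle markers (permutation p = 0.00585, adjusted p = 0.0351) and of 0.74 with skeletal muscle markers (permutation p = 0.0018, adjusted p = 0.0342).

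HR2835 had the lowest mean of all animals for these 3 marker lists. The same held for the cortex, capsule and fibroblast, endothelial, and Schwann and sustentacular cell lists. It did not hold for the chromaffin, red blood cell, adipocyte and immediate early response lists. Skeletal muscle markers, 4 of 5 measured, had means of 5.04 to 6.03 in HR and 5.41 to 5.81 in LR, smooth muscle markers, 4 of 5, of 7.92 to 8.91 in HR and 8.58 to 8.93 in LR, and leukocyte markers, 3 of 5, of 5.49 to 6.21 in HR and 5.51 to 5.94 in LR. The dimmest gene averaged 3.93 in the skeletal muscle list and 4.54 in the leukocyte list, below the median level of 4.78. In the smooth muscle list it averaged 5.97. By rank 0 of the 4 relations passed, with a rho of -0.52, -0.65, 0.55 and 0.55 (adjusted permutation p = 0.13, 0.0526, 0.104 and 0.104). After the 2 animals most distant in the marker list were dropped, r was -0.43, -0.41, 0.37 and 0.44. Without HR2835 it was -0.38, -0.45, 0.41 and 0.50, and no relation passed by r.

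The markers of capsule and fibroblasts had an r of -0.0069 with CRYAB with all animals (permutation p = 0.976, adjusted p = 0.984) and a rho of -0.34 (adjusted permutation p = 0.435). After HR2835 was left out Pearson's r came to -0.67 (permutation p = 0.00421, adjusted p = 0.101), with Spearman's rho at -0.71 (permutation p = 0.00123, adjusted p = 0.0295), so that this relation appears only without that array. With HSPH1 the same markers had an r of -0.44 with all animals and of 0.044 without HR2835.

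The markers of the cortex had an r of -0.71 with HSPH1 (permutation p = 0.0174, adjusted p = 0.0696) and of 0.66 with CRYAB (permutation p = 0.0121, adjusted p = 0.0583) with all animals, and of -0.23 and 0.28 without HR2835. Chromaffin cell markers had 0.069 with HSPH1 and -0.21 with CRYAB, and -0.036 and -0.17 without HR2835. The part of cell composition in the co-variation of the members was not tested.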

How the data were processed

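Adrenal glands of 10 HR and 10 LR pigs were measured on 1 array each. The authors normalized the arrays by RMA in Expression Console and deposited log2 values for 47845 probe sets, and GCOS 1.1.1 is named in the submitters' processing notes. Here 123 control probe sets were left out, 47722 were tested, and 26426 carried 1 gene symbol in the array annotation, none several and 21296 none. Each gene was read from its brightest probe set, which gave 13588 named genes. Per-sample columns not used numbered 0. Each sample is a separate animal, and the number of arrays limits the precision. Probe set means served to pick the brightest probe set and to call it dim or not, and levels of different genes were not ranked.

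HR was set against LR in limma 3.58.1 (lmFit and eBayes, R 4.3.3) over all 47722 probe sets with Benjamini-Hochberg adjustment. Correlations used values minus their group mean, with permutation tests of 100000 resamples (Python 3.11.15), two-sided. The fit and the correlations were tested on simulated data. Members, lists and the rule for named genes were chosen with earlier results of these data known. The rule took the heat-inducible list (14 of 17 genes measured) and, per subfamily, the 2 brightest members, the 2 of smallest p and the 1 of largest SD, the 5 pairs with the largest r, and up to 2 genes of each pathway list by p. Other members and pairs that are named were chosen after their values were seen. The 61 members held 100 probe sets. Alternatives were other normalizations, array weights, another variance prior, averaging a gene's probe sets, and leaving out animals. No batch could be modelled, since litter, sex, extraction and scan dates are not given in the sources.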

Additional observations from a re-analysis of the deposited data

Results flagged for a closer look

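In 64 groups of 10 animals (the 32 named members in HR and in LR), an animal was taken as lying apart where its gap to the nearest other animal took an unusually large share of the group's range by Dixon's criterion. Chance meets it in about 1 in 20 groups, a rate that does not apply here, since some of these members were named for their large SD. It was met in 15 groups, in 13 of them by HR2835, the animal whose whole array stood apart. HR2835 was the highest HR animal for HSPH1 at 10.45, with the next at 8.72, for HSP90AA1 at 11.65 (next 10.17) and for HSPA4L at 6.79 (next 5.43). It was also the highest for DNAJB14 at 6.68 (next 5.59), DNAJC10 at 8.11 (next 7.54), DNAJC13 at 7.51 (next 5.55) and HSPA13 at 8.86 (next 7.90).

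It was the lowest HR animal for CRYAB at 6.99, with the next at 8.09, for SERPINH1 at 10.39 (next 10.94), HSF1 at 7.09 (next 7.82) and HSPB6 at 7.73 (next 9.15). The same held for DNAJB12 at 6.40 (next 7.54) and for HSPA2 at 6.30 (next 7.71). In LR the criterion was met by LR2579, the highest for HSPA2 at 8.46 (next 7.81), and by LR2016, the lowest for HSPA4L at 4.86 (next 5.28).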

How the results depend on the processing

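The count of 0 probe sets past the threshold was the same in every alternative run with limma, including without each animal. The median difference of the members was -0.061, and with 1 animal left out it ranged between -0.081 (without HR2797) and -0.042 (without HR2897). Under the other settings it lay between -0.072 (only probe sets above the median level) and -0.038 (quantile normalization). Of 160 differences of named members under other settings 154 kept their sign. Part of these could not turn, since another variance prior leaves every difference as it is. Averaging probe sets likewise leaves a member with 1 probe set unchanged. With array weights the sign turned for CRYAB (0.054), DNAJB12 (0.054), DNAJB5 (0.0097), DNAJC13 (-0.12) and HSPA2 (0.12), and with quantile normalization for HSP90AA1 (0.0034). With 1 animal left out, 27 of 640 differences changed sign. The ranges were -0.12 to 0.081 for CRYAB, -0.081 to 0.078 for DNAJB12, -0.086 to 0.027 for DNAJB5, -0.14 to 0.13 for DNAJC13, -0.040 to 0.11 for DNAJC5, -0.20 to 0.032 for HSP90AA1, -0.088 to 0.13 for HSPA2 and -0.070 to 0.065 for HSPB1. The cause was not tested.

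The median r of the heat-inducible list was -0.065, and with 1 animal left out it ranged between -0.11 (without LR2579) and 0.036 (without HR2835). It was 0.11 in LR alone and 0.38 without DNAJB1, and the median of Spearman's rho was -0.12. The r of HSPD1 and HSPE1 no longer passed in LR alone (0.48), nor with all probe sets averaged (0.45), and that of CRYAB and SERPINH1 not with this average (0.47). The number of list pairs that passed was 37 with all animals, 20 in HR alone, 21 in LR alone and 31 without HR2835. Fewer animals enter these fits.

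The number of members with an unadjusted p under 0.05 (limma) was 4 with all animals and 1 with quantile normalization. With 1 animal left out it ranged between 1 (without LR2579) and 11 (without HR2835), with 7 without LR2016 and 2 without HR2797, HR2857, HR2897, HR2965, LR2789 or LR2793. These counts, the counts of pairs, the lists without DNAJB1 and the pairs with all probe sets were chosen after seeing the data. No paired analysis was possible because the animal numbers of HR and LR are not shared. Dim probe sets, such as that of DNAJB1, limit what can be read from their values.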

Other observations

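Some genes beside the members had a high r with them over the 20 animals. They were picked after the values were seen, share their arrays and are given as a description, with no test. STUB1 (CHIP), the ubiquitin ligase that binds HSP70 and HSP90 and part of the HSP90 co-chaperone list, had an r of -0.88 with HSPH1 and -0.71 without HR2835. The ubiquitin-conjugating enzymes UBE2D3 and UBE2N had an r of 0.94 and 0.93 with HSPH1, and of 0.95 and 0.87 without HR2835. The topoisomerase TOP1 had 0.94, and 0.89 without HR2835.

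The ER chaperones of the unfolded protein response, a list apart from the members, had no common relation to HSPH1. Their median r was 0.037 over 7 genes, or 0.14 without HR2835, with a range of -0.75 to 0.87. An r over 0.5 was found for 3 of 7, also without HR2835. These were HSPA5, DNAJB9 and DNAJC3, at 0.86, 0.87 and 0.79, or 0.76, 0.76 and 0.80 without HR2835. PDIA4, SDF2L1 and HYOU1 had -0.64, -0.75 and -0.52, or 0.029, -0.36 and -0.21 without HR2835. HYOU1, an HSP110-type chaperone of the ER lumen, had an r of 0.82 with CRYAB and 0.74 without HR2835. Its level averaged 10.36 ± 0.25 in HR and 10.28 ± 0.17 in LR (SD over 10 animals each), a difference of 0.073 ± 0.099 (SE), or of 0.12 without HR2835.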
